A study of Homo sapiens with 10 samples.

Results

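DBTRG-05MG, a human glioblastoma cell line, was exposed to 1 mM dibutyryl cyclic AMP (dbcAMP), a cell-permeable analogue of the second messenger cAMP, and poly(A) RNA was sequenced at 0, 6, 12, 24 and 48 h. The step described here compares the 24 h library with the 12 h library of that line, which are 2 of the 10 libraries of the series; the other 5 come from U87, a second human glioblastoma line given the same dose for the same times. The labels give the dose as 1 mM and the last time as 48 h, whereas the submitters' design text gives 1 mol/L and 3 days, and the labels were followed. Each line and time had 1 library, so no value has a replicate, and the step within 1 line has no spread to test against. A fit over both lines with the line as a block was not run. All comparisons are therefore sizes of difference between single libraries, and there was no parallel untreated culture at 12 or 24 h, so time in culture and time in dbcAMP cannot be told apart.

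The deposited table gives a level in FPKM (fragments per kilobase of transcript and per 1000000 mapped fragments) for 20379 genes. The genes followed were the 12424 whose values in the 5 DBTRG-05MG libraries averaged 1 FPKM or more. The genes nearest to that limit were CLEC7A inside it, with a mean of 1.001 FPKM, and CSPG4 outside it, with a mean of 0.9999 FPKM. The change in the step is written as log2 of the ratio of FPKM + 1 at 24 h to FPKM + 1 at 12 h, so that positive values are higher at 24 h. A gene is called changed when that ratio passes 2-fold.

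Cells copy their DNA once per division. Origins are first licensed in G1 phase by loading the MCM helicase, with ORC, CDC6 and CDT1 as loaders; the helicase is then activated by CDC45 and GINS, and polymerases, the sliding clamp and a supply of deoxynucleotides carry out synthesis in S phase. The genes for this machinery are classic targets of E2F transcription factors at the boundary of G1 and S phase, whereas genes for mitosis are transcribed later, in G2 phase and mitosis, through the MuvB complex with B-MYB and FOXM1. In many cell types cAMP signals through protein kinase A to the factor CREB, and raised cAMP slows division in several glioma lines.

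The libraries of the step were alike in size. The depth of the 24 h library was estimated at 93.9% of the 12 h library from the smallest steps between low values, with about 9880000 fragments in the 12 h library; the 10 libraries lay between 89.8% and 104.9% of it. The median log2 change over all 12424 genes was 0.05, and the median size of a change, without its sign, was 0.20. Of these genes, 7137 were above 0 and 5278 below 0, which is the background for such counts in the lists below. Glioma line genes were present at both times: the intermediate filament gene VIM had 1235 FPKM at 24 h and 1726 FPKM at 12 h, the hyaluronan receptor gene CD44 had 321 and 363 FPKM at 24 h and 12 h, and the neural stem cell factor gene SOX2 had 23.0 and 23.9 FPKM at 24 h and 12 h. GFAP, the classic astrocyte filament gene, was near 0 at both times, with 0.51 FPKM at 24 h and 0.18 FPKM at 12 h. Other astrocyte genes were present, since 5 of 11 on that list reached 1 FPKM in some DBTRG-05MG library. The summed level of the astrocyte list was 65.6 FPKM at 24 h and 76.3 FPKM at 12 h. Of markers of other cell types, 8 of 13 neuron genes reached 1 FPKM in some DBTRG-05MG library, with a summed level of 193.9 FPKM at 24 h and 179.5 FPKM at 12 h, and SYT1, a synaptic vesicle gene, was 2-fold higher (4.49 FPKM at 24 h and 1.41 FPKM at 12 h). The same held for 3 of 10 oligodendrocyte genes (62.4 FPKM at 24 h and 68.6 FPKM at 12 h in sum), 2 of 10 myeloid genes (95.5 FPKM at 24 h and 65.2 FPKM at 12 h in sum), 4 of 9 epithelial genes (14.6 FPKM at 24 h and 13.0 FPKM at 12 h in sum) and 1 of 8 endothelial genes (1.53 FPKM at 24 h and 1.15 FPKM at 12 h in sum). The defining genes MOG (oligodendrocytes) and RBFOX3 (neurons) were at 0 at both times, and PTPRC (leukocytes) and PECAM1 (endothelium) stayed below 0.1 FPKM. The part of these markers in the results was not tested.

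Between 12 and 24 h the part of the transcriptome that moved was small, and its lower protein-coding side held many genes of DNA replication. The step was chosen as the one in which replication genes begin to fall, so their fall in it is a description and not an independent finding. In RNA from a whole culture, fewer cells in S phase and less of these transcripts per cell cannot be told apart. Of all genes, 92 were at least 2-fold lower at 24 h (0.741%) and 133 were at least 2-fold higher (1.07%). At 1.5-fold the numbers were 441 lower (3.55%) and 634 higher (5.1%). Protein-coding genes made up 57 of the lower genes and 76 of the higher ones, of 11563 tested (0.493% and 0.657%). Of the 57 lower protein-coding genes, 20 were members of 5 lists of replication genes and 5 more belonged to lists of S-phase repair and G1/S control. The 20 were 24.1% of the 83 members of the replication lists. None was a member of the 4 lists of mitosis genes. With 0.493% of all protein-coding genes called lower, 0 of the 99 mitosis genes is near that share, and 89 of the 99 were below 0. The protein-coding genes nearest to the 2-fold limit on the lower side were the chaperone gene HSPA8 inside it, with 553 FPKM at 24 h against 1108 FPKM at 12 h, and HAUS7 outside it, with 3.39 FPKM at 24 h against 7.77 FPKM at 12 h.

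**Figure D1:**
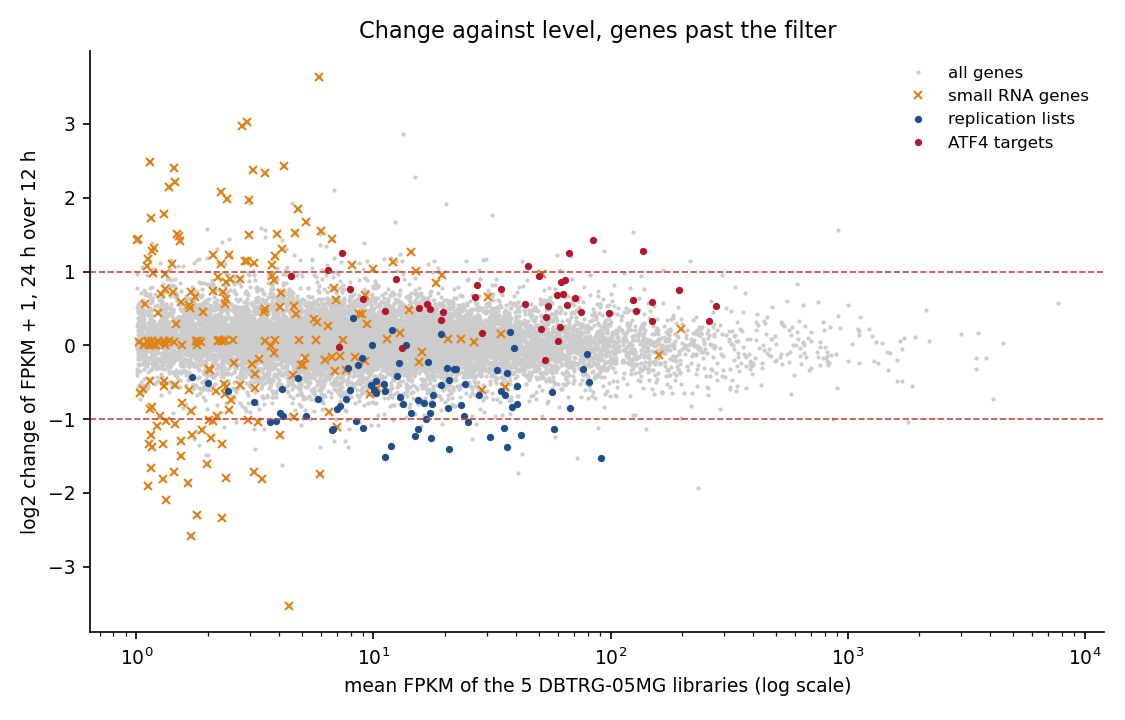
Each point is 1 of the 12424 genes, plotted by its mean FPKM over the 5 DBTRG-05MG libraries (log axis) and its log2 change of FPKM + 1 from 12 to 24 h, with dashed lines at 2-fold. Replication genes (blue, 79 of 83 below 0) and ATF4 targets (red, 42 of 45 above 0) separate across a wide range of levels, and small RNA genes (crosses) scatter widely in both directions.

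Promoters of 3 origin licensing genes and 2 mitosis genes are shown first, since they carry the letters searched for below. They are RefSeq sequences on GRCh38.p14, 250 bases before to 50 bases after the first listed start, written 5′ to 3′ on the strand of the gene. In MCM6 (chr2:135876394-135876693, minus strand), MCM2 (chr3:127598161-127598460, plus strand) and CDC6 (chr17:40287629-40287928, plus strand), 3 genes of origin licensing that were over 2-fold lower at 24 h, capitals mark matches to an E2F site, searched as TTTCGCGC or TTTGGCGC on both strands. Overlapping matches are shown as 1 run of capitals, and MCM6 held 4 matches, MCM2 held 2 and CDC6 held 1. These 3 genes were picked for the largest falls among licensing genes with this match, so they do not stand for all licensing genes. The site was found in 5 of the 15 licensing genes with a RefSeq promoter (33.3%).
MCM6: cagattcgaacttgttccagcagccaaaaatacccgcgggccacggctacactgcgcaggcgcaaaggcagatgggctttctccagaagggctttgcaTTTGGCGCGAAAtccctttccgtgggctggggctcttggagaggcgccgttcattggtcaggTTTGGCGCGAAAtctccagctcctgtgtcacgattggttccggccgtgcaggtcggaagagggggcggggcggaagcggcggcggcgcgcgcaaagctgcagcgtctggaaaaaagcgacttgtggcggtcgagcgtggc
MCM2: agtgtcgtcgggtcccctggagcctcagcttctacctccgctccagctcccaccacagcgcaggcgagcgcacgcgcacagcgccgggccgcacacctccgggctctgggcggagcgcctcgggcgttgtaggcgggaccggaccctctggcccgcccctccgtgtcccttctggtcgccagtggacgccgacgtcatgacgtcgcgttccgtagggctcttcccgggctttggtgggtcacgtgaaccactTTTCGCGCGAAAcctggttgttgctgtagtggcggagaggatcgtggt
CDC6: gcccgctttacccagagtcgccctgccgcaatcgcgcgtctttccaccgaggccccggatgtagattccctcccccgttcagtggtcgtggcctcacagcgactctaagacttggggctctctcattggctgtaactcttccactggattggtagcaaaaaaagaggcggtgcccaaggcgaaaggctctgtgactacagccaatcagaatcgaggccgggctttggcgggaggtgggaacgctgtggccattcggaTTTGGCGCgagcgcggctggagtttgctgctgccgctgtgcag

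In ASPM (chr1:197146620-197146919, minus strand) and PLK1 (chr16:23678639-23678938, plus strand), a spindle pole gene and a mitotic kinase gene that stayed near their 12 h levels, capitals mark a match to the CHR element (cell cycle genes homology region), searched as TTTGAA or TTCGAA on both strands. Both genes were picked for the largest falls from 24 to 48 h (−2.24 and −2.22) among mitosis genes with this match and the letters CCAAT. That rule favours genes still high at 24 h, so they do not stand for the mitosis genes in the step from 12 to 24 h. Of 99 mitosis genes, 89 were below 0 in that step, with a median of −0.47. A match is a description of letters in this window and not evidence of binding.
ASPM: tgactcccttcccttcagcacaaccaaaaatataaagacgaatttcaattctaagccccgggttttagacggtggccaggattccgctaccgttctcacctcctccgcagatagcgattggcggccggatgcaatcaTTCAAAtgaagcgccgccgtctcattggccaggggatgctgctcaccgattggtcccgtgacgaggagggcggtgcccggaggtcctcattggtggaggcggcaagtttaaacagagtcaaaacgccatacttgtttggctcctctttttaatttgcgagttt
PLK1: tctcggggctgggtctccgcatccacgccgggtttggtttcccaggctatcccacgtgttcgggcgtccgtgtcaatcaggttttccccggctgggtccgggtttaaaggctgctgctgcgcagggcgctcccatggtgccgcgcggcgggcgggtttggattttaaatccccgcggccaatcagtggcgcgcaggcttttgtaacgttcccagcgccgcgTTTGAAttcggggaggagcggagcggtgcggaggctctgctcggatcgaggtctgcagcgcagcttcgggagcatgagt

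These letters were distributed unevenly among the genes of the step. The E2F site was found in 2.15% of the 9580 protein-coding genes with a RefSeq promoter, in 13 of the 43 lower protein-coding genes with one (30.2%) and in 0 of the 58 higher ones. Among list members it was found in 14 of 71 replication genes (19.7%) and in 5 of 84 mitosis genes (5.95%). The CHR element was found in 10.7% of all these promoters, in 5 of the 71 replication genes (7.04%) and in 61 of the 84 mitosis genes (72.6%). Among the called genes it was found in 4 of the 43 lower (9.30%) and in 8 of the 58 higher ones (13.8%). The CCAAT box (CCAAT on both strands) was found in 37.0% of all promoters, in 30 of the 43 lower genes (69.8%) and in 25 of the 58 higher genes (43.1%). By list it was found in 53.5% of replication, 67.9% of mitosis, 54.2% of actin and SRF, 60% of ATF4 target and 52.6% of clock gene promoters. The last 2 of these lists were mostly higher in the step, so the CCAAT box was not particular to lower genes. The cAMP response element TGACGTCA, the binding site of CREB, was found in 3.37% of all promoters, in 2 of the 43 lower genes (4.65%) and in 3 of the 58 higher genes (5.17%).

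Origin licensing genes showed the largest list difference among the division lists. Of 17 members, 9 were at least 2-fold lower at 24 h, 16 were below 0 and the list median was −1.03. The 6 subunits of the replicative helicase, MCM2 to MCM7, were all past 2-fold. MCM6 had 5.41 FPKM at 24 h against 17.3 FPKM at 12 h, with 14.1, 14.9 and 3.96 FPKM at 0, 6 and 48 h. MCM2 had 10.7 FPKM at 24 h and 30.2 FPKM at 12 h, with 26.5, 28.7 and 7.74 FPKM at 0, 6 and 48 h. MCM5 had 19.1 FPKM at 24 h and 51.2 FPKM at 12 h, with 47.2, 54.1 and 10.9 FPKM at 0, 6 and 48 h. In each of these 3 genes the levels at 0, 6 and 12 h lay together and those at 24 and 48 h lay below all of them, so that most of the way to the 48 h level was covered in this step.

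The helicase loader gene CDC6 had 8.94 FPKM at 24 h and 20.8 FPKM at 12 h, a log2 change of −1.13. ORC1, the origin recognition subunit whose level varies with the cell cycle, had 5.72 FPKM at 24 h and 12.7 FPKM at 12 h (−1.03). MCM10, which links the helicase to polymerase alpha, had 2.30 FPKM at 24 h and 5.74 FPKM at 12 h (−1.03). The other loader gene, CDT1, and its inhibitor gene, GMNN (geminin), were less changed, at −0.70 and −0.67. ORC2, ORC3, ORC4 and ORC5, which encode the other large subunits of the origin recognition complex, were nearly level, between −0.18 and 0.37.

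Genes for activating the helicase and for the fork were lower without exception. All 15 members were below 0, 11 passed 1.5-fold and 2 passed 2-fold, with a median of −0.73. The leading members were GINS2 and GINS1, subunits of the GINS complex that joins the MCM ring. GINS2 had 6.305 FPKM at 24 h and 17.8 FPKM at 12 h (−1.36), and GINS1 had 4.03 FPKM at 24 h and 10.2 FPKM at 12 h (−1.15). CDC45, the third part of the active helicase, had 13.4 FPKM at 24 h and 26.1 FPKM at 12 h (−0.92). DBF4, the activating subunit of the CDC7 kinase, moved least of this list, with 12.4 FPKM at 24 h and 14.7 FPKM at 12 h (−0.23).

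Polymerases, the clamp and its loaders had a median of −0.70, with 4 of 26 members past 2-fold and 18 past 1.5-fold. PCNA, the sliding clamp, had 30.3 FPKM at 24 h and 71.5 FPKM at 12 h, with 41.4, 43.9 and 21.5 FPKM at 0, 6 and 48 h. Its 12 h level was thus the highest of the 5 and its 24 h level lay below those at 0 and 6 h. RFC4, a clamp loader subunit, had 9.86 FPKM at 24 h and 24.5 FPKM at 12 h (−1.23). POLA1 and POLD3, subunits of polymerases alpha and delta, were at −1.13 and −1.12. POLD4, another subunit of polymerase delta, was at 0.18 and was the single member of the list above 0.

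Deoxynucleotide supply was split by gene. RRM2, the small subunit of ribonucleotide reductase that is made in S phase, was the most changed of all 83 replication genes, with 55.0 FPKM at 24 h against 159.9 FPKM at 12 h (−1.52), and 94.0, 127 and 17.7 FPKM at 0, 6 and 48 h. RRM1, its partner subunit, had 17.5 FPKM at 24 h and 37.0 FPKM at 12 h (−1.04). TYMS, which makes thymidylate, was at −0.92. RRM2B, the paralogue of RRM2 that p53 induces, was at 0.16, with 23.1 FPKM at 24 h and 20.6 FPKM at 12 h, and DCTD, a deaminase of dCMP, was at −0.04. The list median of the 13 members was −0.37, with 2 past 2-fold.

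Chromatin assembly genes had a median of −0.73, with 3 of 12 members past 2-fold. UHRF1, which recruits the maintenance methyltransferase to new DNA, had 9.93 FPKM at 24 h and 25.1 FPKM at 12 h (−1.26). The chromatin remodelling gene HELLS and the histone chaperone gene CHAF1B were at −1.04 and −1.004. ASF1A, a histone chaperone that also acts outside replication, was at 0.20, whereas its paralogue ASF1B was at −0.85. Over the 5 replication lists together, 20 of 83 genes were at least 2-fold lower, 52 were at least 1.5-fold lower, none was at least 1.5-fold higher, and the median was −0.67.

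**Figure D2:**
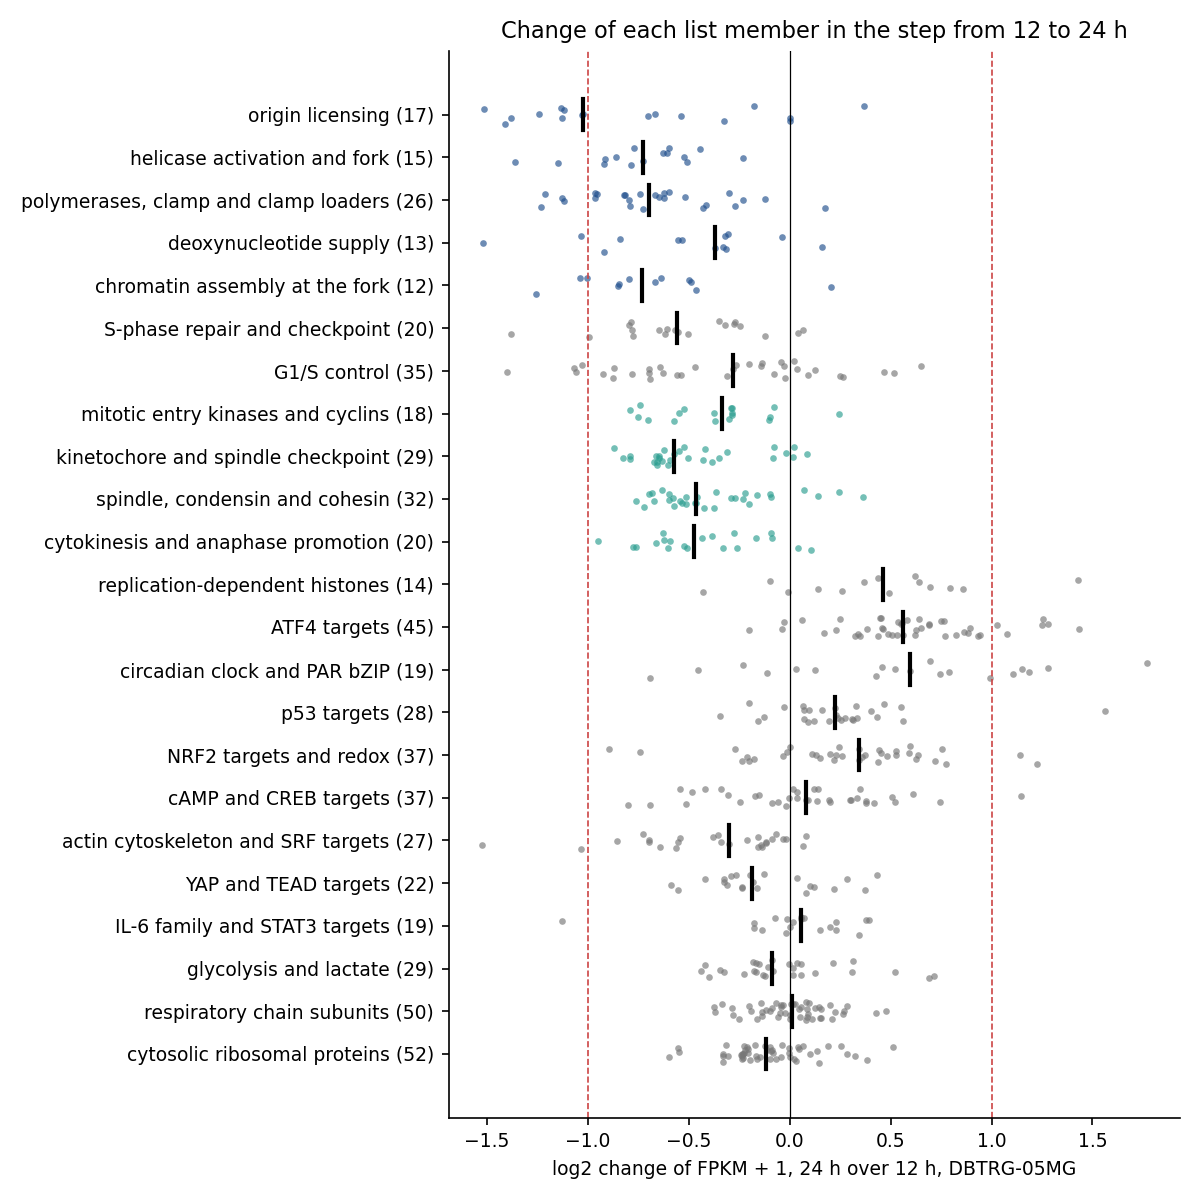
Each point is a list member past the filter on low levels, placed by its log2 change of FPKM + 1 from 12 to 24 h in DBTRG-05MG; black bars are list medians, numbers in brackets are members, and dashed lines mark 2-fold. Replication lists (blue) reach −1.52 while mitosis lists (green) stay inside 2-fold, and ATF4 targets and clock genes lie mostly to the right of 0, with medians of 0.56 and 0.60.

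S-phase repair genes had a median of −0.56 over 20 members. In G1/S control the median of 35 members was −0.28 and 4 members were at least 2-fold lower. CCNE2, which encodes cyclin E2, had 1.34 FPKM at 24 h and 5.20 FPKM at 12 h (−1.40). E2F1, an activator E2F, had 11.3 FPKM at 24 h and 24.8 FPKM at 12 h (−1.07), with 24.97, 28.3 and 8.06 FPKM at 0, 6 and 48 h. Another activator, E2F3, was nearly level, with 8.24 FPKM at 24 h and 8.74 FPKM at 12 h (−0.08). CDK2, the kinase partner of cyclin E, had 20.3 FPKM at 24 h and 43.4 FPKM at 12 h (−1.06), and E2F2 was at −1.03. E2F4 and E2F5, which act mainly as repressors, were at 0.13 and 0.26, and E2F6 was at 0.02. Of the atypical repressors, E2F7 was at 0.25 and E2F8 at −0.54, with 4.62 FPKM at 24 h and 7.17 FPKM at 12 h. The CDK inhibitor genes CDKN1A (p21) and CDKN1B (p27) were at 0.47 and 0.52, short of 2-fold, with 350 and 40.3 FPKM at 24 h against 253 and 27.9 FPKM at 12 h. The CDK inhibitor genes of the INK4 family lay on the other side of 0, with CDKN2C (p18) at −0.88 (16.8 FPKM at 24 h and 31.7 FPKM at 12 h) and CDKN2D (p19) at −0.31. RB1, the retinoblastoma gene, was at −0.14, and CDK4 was at 0.03.

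Mitosis genes were lower by less, and none of 99 members of the 4 lists passed 2-fold in either direction (CDCA5 did when the median of all changes was set to 0). Over all genes 0.741% were at least 2-fold lower and 3.55% at least 1.5-fold lower, so 0 of 99 past 2-fold is near the background. Of them, 34 were at least 1.5-fold lower, 89 were below 0, and the median was −0.47. The most changed was CDCA5 (sororin, which protects sister cohesion), with 18.9 FPKM at 24 h and 37.5 FPKM at 12 h (−0.95). CDK1, the kinase that starts mitosis, had 14.1 FPKM at 24 h and 25.1 FPKM at 12 h (−0.79). MKI67, the proliferation antigen Ki-67, had 46.3 FPKM at 24 h and 69.4 FPKM at 12 h (−0.57), and CCNB1, which encodes cyclin B1, had 91.7 FPKM at 24 h and 112 FPKM at 12 h (−0.29).

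Several mitosis genes were level or higher. PLK1, the mitotic kinase whose promoter is given above, had 83.6 FPKM at 24 h against 89.9 FPKM at 12 h (−0.10), and ASPM was at −0.16. The centromere genes CENPA, CENPE and CENPF were at 0.02, 0.08 and −0.02. PTTG1 (securin, the inhibitor of separase) had 225 FPKM at 24 h and 175 FPKM at 12 h (0.36), and CDC25B, a phosphatase that activates CDK1, was at 0.25.

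The neighbouring steps of the same line are set side by side here, with the caution that adjacent steps share a library. Replication and mitosis genes both first had medians well below 0 in the step from 12 to 24 h. The steps therefore give sizes of change and no order of onset. In the steps 6 over 0 h, 12 over 6 h, 24 over 12 h and 48 over 24 h, the median of the 83 replication genes was 0.00, 0.10, −0.67 and −0.61. The median of the 99 mitosis genes in those steps was −0.03, 0.28, −0.47 and −1.50. At least 2-fold lower were 20 replication genes and 0 mitosis genes in the step from 12 to 24 h, and 15 replication genes and 83 mitosis genes in the step from 24 to 48 h. Origin licensing alone had 9 members past 2-fold in the step to 24 h and 1 in the step to 48 h. Its median in the step to 48 h was still −0.73, with 16 of 17 members below 0. MKI67 fell at every step and most in the last, with 79.9, 76.0, 69.4, 46.3 and 10.3 FPKM at 0, 6, 12, 24 and 48 h. Most mitosis genes differed from it early: 84 of the 99 were above 0 in the step 12 over 6 h. CDK1 had 12.6, 16.5, 25.1, 14.1 and 2.90 FPKM at these times, so its 24 h level lay above its 0 h level. Over all genes the step to 48 h had 241 genes at least 2-fold lower (1.94%), more than the 92 of the step to 24 h.

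**Figure D3:**
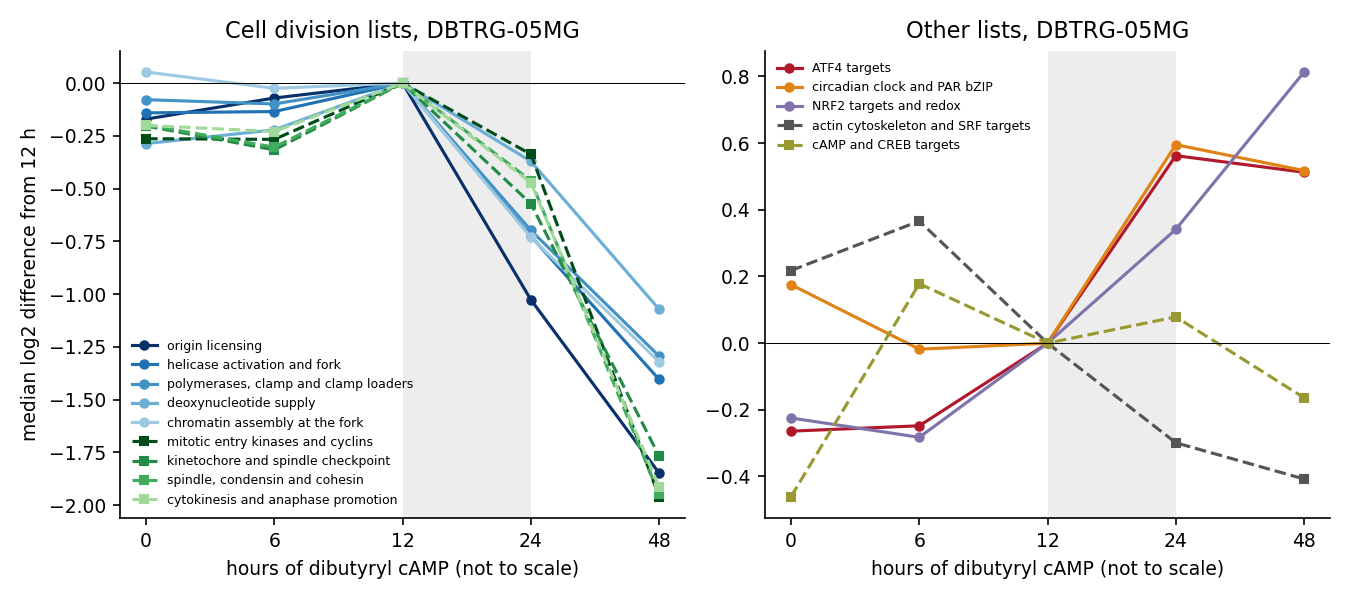
Median log2 difference of list members from their own 12 h value at 0, 6, 12, 24 and 48 h in DBTRG-05MG, for cell division lists (left) and other lists (right); the shaded band is the step from 12 to 24 h and the time axis is not to scale. Origin licensing reached −1.03 at 24 h, while the 4 mitosis lists (dashed) lay between −0.34 and −0.57 there. By 48 h the mitosis lists lay below every replication list other than origin licensing. All of them but the kinetochore and spindle checkpoint list lay below origin licensing too.

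Replication-dependent histone genes ran the other way. Of 14 members past the filter, 11 were above 0, the median was 0.46 and 1 passed 2-fold. That gene, HIST1H4H, had 6.05 FPKM at 24 h and 1.62 FPKM at 12 h (1.43). HIST1H2AC had 41.3 FPKM at 24 h and 26.5 FPKM at 12 h (0.62), and HIST1H2BD had 36.8 and 22.3 FPKM at 24 h and 12 h (0.70). Messages of these genes normally end in a stem-loop without a poly(A) tail, so a poly(A) library holds only the share that carries a tail, and near-identical copies of the genes can exchange reads.

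On the higher side were targets of ATF4, the transcription factor of the integrated stress response. Of 45 members, 42 were above 0, 21 were at least 1.5-fold higher, 6 were at least 2-fold higher and the median was 0.56. TRIB3, a pseudokinase that feeds back on this response, had 157 FPKM at 24 h and 57.5 FPKM at 12 h (1.43), with 32.0, 34.6 and 141 FPKM at 0, 6 and 48 h. DDIT3, which encodes CHOP, had 226 FPKM at 24 h and 92.6 FPKM at 12 h (1.28), with 60.8, 45.5 and 262 FPKM at 0, 6 and 48 h. In both genes the 24 h and 48 h levels were the 2 highest of the 5.

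The other members past 2-fold were SLC6A9, a glycine transporter gene (12.5 FPKM at 24 h and 4.66 FPKM at 12 h), VEGFA, an angiogenic factor gene that is also on the hypoxia list (91.2 and 37.8 FPKM at 24 h and 12 h), and the transsulfuration enzyme genes CBS (62.6 and 29.1 FPKM at 24 h and 12 h) and CTH (10.3 and 4.54 FPKM at 24 h and 12 h). Chaperones of the endoplasmic reticulum and targets of XBP1, an arm of the unfolded protein response, were level, with a median of 0.04 over 26 members and none past 2-fold. Hypoxia-induced genes were level too, with a median of −0.04 over 22 members, and VEGFA was the 1 member past 2-fold.

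Clock genes were another higher group, with 5 of 19 members at least 2-fold higher, 10 at least 1.5-fold higher and a median of 0.60. The 5 are repressors or outputs of the clock. DBP, a PAR bZIP factor driven directly by CLOCK and BMAL1, had 40.0 FPKM at 24 h and 11.0 FPKM at 12 h (1.77), with 34.2, 10.3 and 62.3 FPKM at 0, 6 and 48 h. NR1D1, the repressor REV-ERB alpha, had 130 FPKM at 24 h and 52.97 FPKM at 12 h (1.28), with 92.5, 59.0 and 134 FPKM at 0, 6 and 48 h. C1orf51, the older symbol of the clock repressor gene CIART, had 8.67 FPKM at 24 h and 3.25 FPKM at 12 h (1.18). PER3 was at 1.15 and BHLHE41 (DEC2) at 1.11. For DBP, NR1D1, C1orf51, PER3 and BHLHE41 alike, the levels at 0, 24 and 48 h were all above those at 6 and 12 h. ARNTL, which encodes BMAL1, was at −0.23, CLOCK at −0.11, and ARNTL2 at −0.69.

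Among 37 targets of NRF2, the oxidative stress factor, 27 were above 0, 9 were at least 1.5-fold higher, 2 were at least 2-fold higher and the median was 0.34, while 2 were at least 1.5-fold lower. HMOX1, heme oxygenase 1, had 44.8 FPKM at 24 h and 19.7 FPKM at 12 h (1.14). AKR1C1, an aldo-keto reductase gene with near-identical neighbours that can exchange reads, had 77.6 FPKM at 24 h and 32.7 FPKM at 12 h (1.22). Among 28 p53 targets 23 were above 0, the median was 0.23, and GDF15, a stress-induced secreted factor, was the 1 member past 2-fold, with 1153 FPKM at 24 h against 391 FPKM at 12 h (1.56). GDF15 had 359, 391 and 2276 FPKM at 0, 6 and 48 h, so that it was flat up to 12 h and highest at 48 h.

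**Figure D4:**
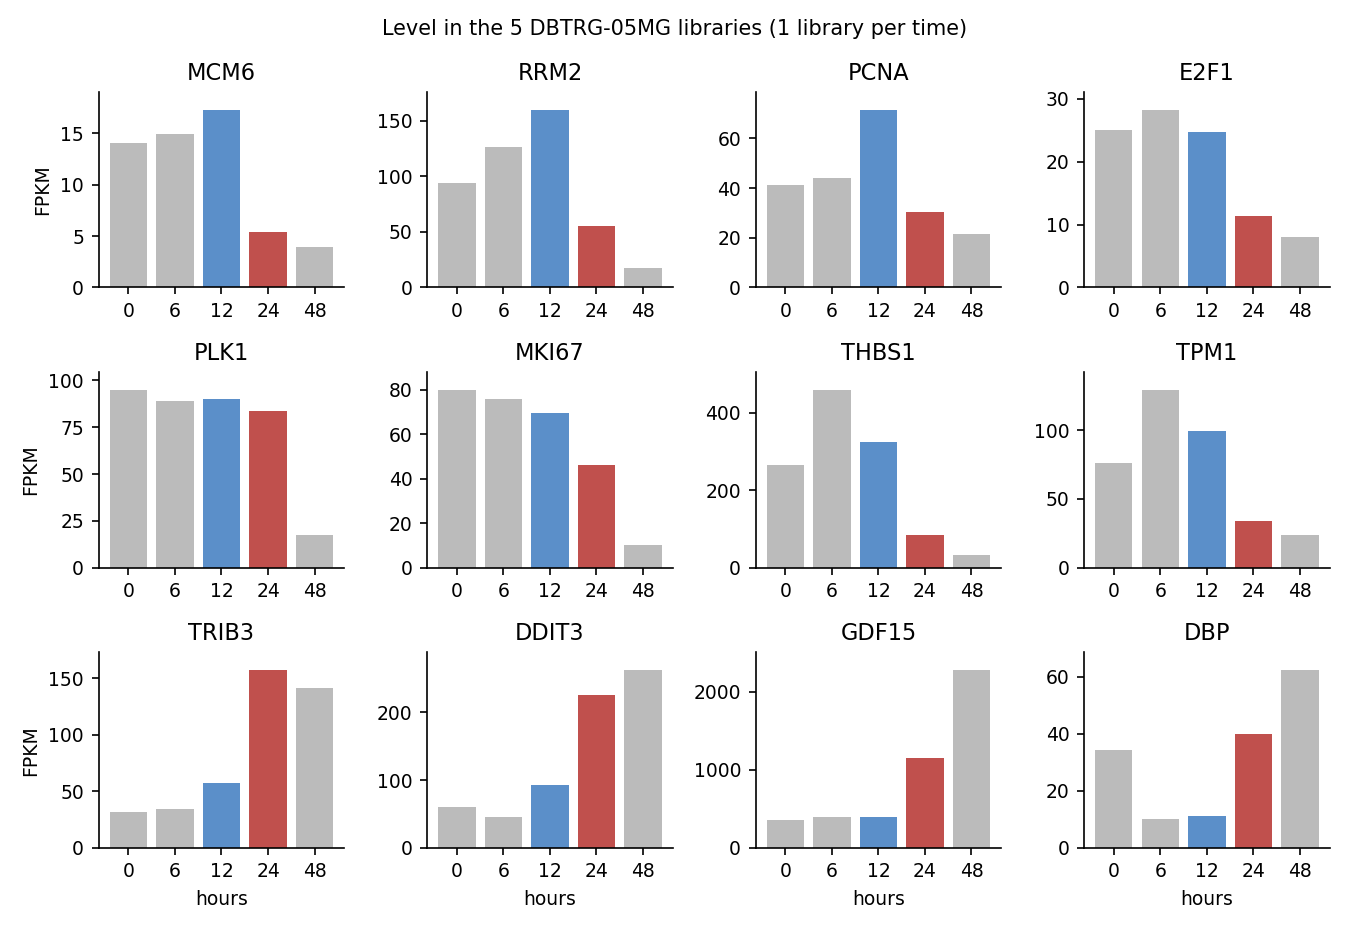
FPKM in the 5 DBTRG-05MG libraries for 12 genes, with 12 h in blue, 24 h in red and the other times in grey; each bar is 1 library and each axis starts at 0. MCM6, RRM2, PCNA and E2F1 are lower at 24 h than at 0, 6 and 12 h, PLK1 is nearly level until 24 h (83.6 FPKM against 89.9 FPKM at 12 h), and TRIB3, DDIT3 and GDF15 are higher at 24 h than at the 3 earlier times.

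Known cAMP and CREB targets were not a moving group in this step. Of 37 members, 22 were above 0, the median was 0.08 and 1 passed 2-fold. That gene was SCG2 (secretogranin II, a granule protein of endocrine and nerve cells), with 313 FPKM at 24 h and 141 FPKM at 12 h (1.15). DIO2, the deiodinase that activates thyroid hormone, had 7.26 FPKM at 24 h and 13.4 FPKM at 12 h (−0.80), with 2.74, 19.5 and 2.77 FPKM at 0, 6 and 48 h. The 21 components of the cAMP pathway itself, from adenylyl cyclases to kinase subunits, had a median of 0.03 and none past 2-fold.

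Actin and SRF target genes (SRF is the serum response factor) continued lower. Of 27 members, 25 were below 0, 7 were at least 1.5-fold lower, 2 were at least 2-fold lower and the median was −0.30. TPM1, a tropomyosin gene, had 33.8 FPKM at 24 h and 99.1 FPKM at 12 h (−1.52), and ACTG1, cytoplasmic gamma actin, had 885 FPKM at 24 h and 1814 FPKM at 12 h (−1.03). ACTB, beta actin, which is often used as a loading control, had 2791 FPKM at 24 h and 4626 FPKM at 12 h (−0.73). The matrix glycoprotein gene THBS1 (thrombospondin 1) was the most changed protein-coding gene on the lower side, with 84.5 FPKM at 24 h against 325 FPKM at 12 h (−1.93), and 265, 459 and 33.8 FPKM at 0, 6 and 48 h. Collagen and matrix genes had a median of −0.18 over 35 members, with THBS1 as the 1 member past 2-fold.

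The 15 largest changes in each direction, among genes that reached 5 FPKM at 12 or 24 h, mixed such genes with loci of small RNAs. On the lower side 11 were protein-coding. Besides THBS1, TPM1, RRM2, MCM6, MCM2, CCNE2 and MCM5, given above, these included the carboxypeptidase gene CPA4 (17.4 FPKM at 24 h and 59.8 FPKM at 12 h), the imprinted gene MEST (14.4 FPKM at 24 h and 41.8 FPKM at 12 h) and RPS10 (1.59 FPKM at 24 h and 7.02 FPKM at 12 h). RPS10, a ribosomal protein gene, has many processed copies in the genome that can take its reads. ANXA2P2, a processed copy of ANXA2 with the same limit, had 4.69 FPKM at 24 h and 13.8 FPKM at 12 h. The other 3 were loci of small nucleolar RNAs.

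On the higher side 8 were protein-coding. PRND (doppel, a relative of the prion protein) had 17.6 FPKM at 24 h and 1.55 FPKM at 12 h (2.87), with 0.62, 0.36 and 46.6 FPKM at 0, 6 and 48 h. KLHDC7B, a kelch domain gene, had 33.4 FPKM at 24 h and 6.06 FPKM at 12 h (2.29), and PHOSPHO1, a phosphatase gene of bone mineralisation, had 10.7 FPKM at 24 h and 1.72 FPKM at 12 h (2.10). RASL11A, a RAS-like GTPase gene, had 27.3 FPKM at 24 h and 6.50 FPKM at 12 h (1.91), and the receptor subunit gene IL20RB was at 1.92. SLC18A1, the vesicular monoamine transporter of endocrine cells, had 15.7 FPKM at 24 h and 4.25 FPKM at 12 h (1.67), with 0.53, 1.82 and 39.1 FPKM at 0, 6 and 48 h. PRND, RASL11A and SLC18A1 were thus highest at 48 h. DBP, given above, and POLR2J3 (1.59), which has near-identical copies that can exchange reads, complete the 8. The rest were 6 small RNA loci and an uncharacterised locus, LOC100505695 (1.93).

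Small RNA loci moved far more often than protein-coding genes and in both directions. Of 213 such loci, 46 were at least 2-fold higher (21.6%) and 34 were at least 2-fold lower (16%), together 37.6% against 1.15% of protein-coding genes. At the estimated depth 1 fragment on a transcript of 100 bases is worth about 1.01 FPKM, so 5 FPKM there stands for about 5 fragments, against about 98.8 fragments on a transcript of 2000 bases. Such reads in a poly(A) library come from the locus and do not measure the mature small RNA. For example, MIR421 had 11.4 FPKM at 24 h and was listed at 0 at 12 h, with 9.28, 3.87 and 4.97 FPKM at 0, 6 and 48 h.

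The 48 h and 0 h libraries entered the filter on mean level but not the step itself. The difference of 48 over 0 h spans the whole time course, this step included, so it is not a repeat of the step. Of the 57 protein-coding genes at least 2-fold lower in the step, 45 (78.9%) were also at least 2-fold lower at 48 h than at 0 h, against 4.93% of all protein-coding genes. Of the 76 higher ones, 39 (51.3%) were also at least 2-fold higher at 48 h than at 0 h, against 4.38% of all. For small RNA loci the shares were close to their own background, with 7 of 34 lower (20.6% against 19.7%) and 15 of 46 higher (32.6% against 25.8%). The median log2 difference of 48 over 0 h was −1.62 for the 57 lower protein-coding genes and 1.04 for the 76 higher ones.

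The same step in U87, which shares no library with it, did not show the lower replication group. In U87 183 of the 12424 genes were at least 2-fold higher (1.47%) and 376 at least 2-fold lower (3.03%) at 24 h than at 12 h. With the median of all changes set to 0, these numbers became 242 higher and 274 lower in U87. The median of the 83 replication genes was −0.67 in DBTRG-05MG and 0.12 in U87, and that of the 99 mitosis genes was −0.47 in DBTRG-05MG and 0.36 in U87, where 84 of the 99 were above 0. RRM2 had 130 FPKM at 24 h and 63.5 FPKM at 12 h in U87 (1.02), the opposite of its change in DBTRG-05MG. Its U87 levels at 0, 6 and 48 h were 114, 82.6 and 86.9 FPKM, so its 12 h level was the lowest in that line. MCM6 in U87 had 42.5, 25.9, 32.5, 30.6 and 17.9 FPKM at 0, 6, 12, 24 and 48 h, lowest at 48 h. The step alone therefore does not describe the whole course of these genes in U87. Origin licensing was the 1 replication list below 0 in both lines, with a median of −1.03 in DBTRG-05MG and −0.27 in U87. With 1 library per line and time, the difference between the lines was not tested.

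**Figure D5:**
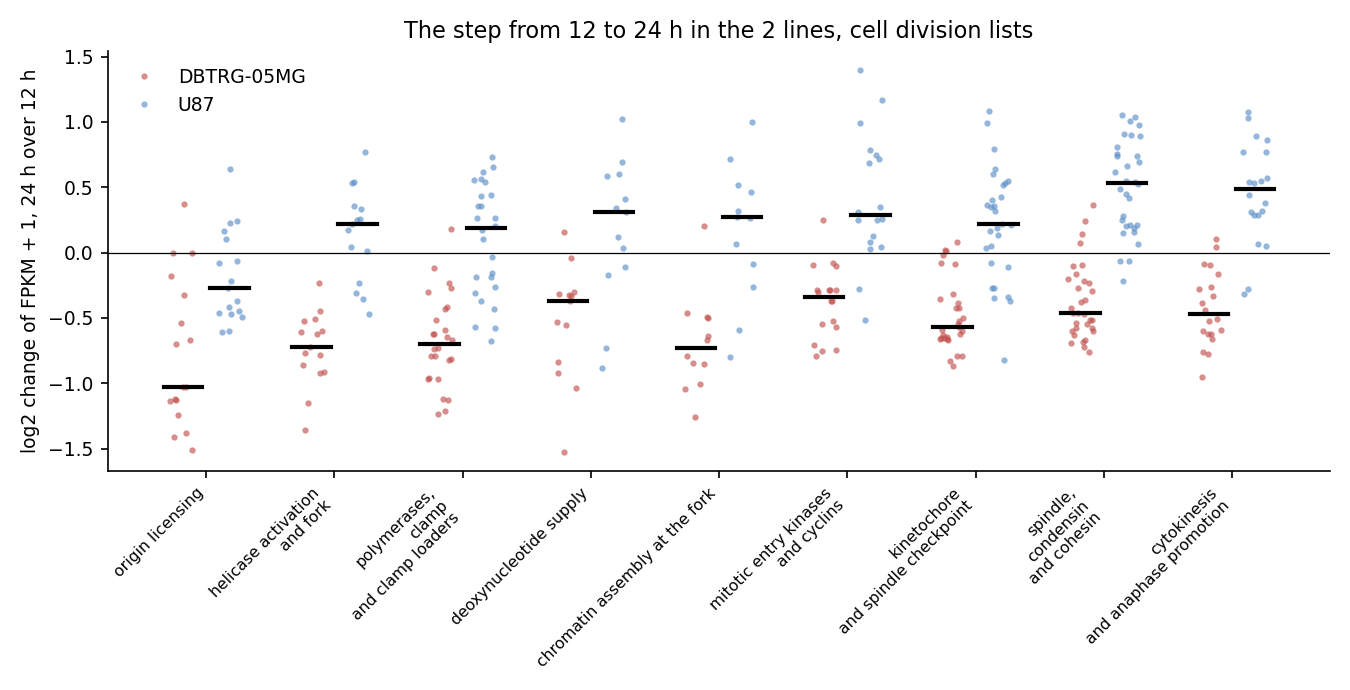
Log2 change of FPKM + 1 from 12 to 24 h for members of the 9 replication and mitosis lists in DBTRG-05MG (red) and U87 (blue); each point is a gene and black bars are list medians. All 9 medians are below 0 in DBTRG-05MG, and 8 of them are above 0 in U87, where origin licensing alone is at −0.27.

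Most of the genes past 2-fold in DBTRG-05MG were not past it in U87. The filter used DBTRG-05MG levels alone, so genes with almost no signal in U87 count as not shared. For example, SLC18A1 was at 0 in U87 at every time and PRND reached at most 0.02 FPKM there. Of the 57 lower protein-coding genes, 6 were also at least 2-fold lower in U87 (10.5% of the 57 and 2.02% of the 297 of U87, where 2.57% of protein-coding genes were called). These 6 were THBS1, CPA4, MEST, DTL (which directs the destruction of CDT1), PTX3 (a secreted pentraxin) and ZNF367. Of the 76 higher ones, 3 were also at least 2-fold higher in U87 (3.95% of the 76 and 2.05% of the 146 of U87, where 1.26% were called), namely the linker histone gene H1F0, CACNG7 and TOX2. In the opposite direction, 5 of the 76 higher genes were at least 2-fold lower in U87 (6.58% of the 76 and 1.68% of the 297), namely AKR1C1, C1orf51, CRYM, GPR157 and HIST1H4H, and RRM2 was the 1 lower gene that was at least 2-fold higher in U87. Those among these genes that are on no list were named after their values were seen. H1F0 had 136.8 FPKM at 24 h and 46.5 FPKM at 12 h in DBTRG-05MG, and 51.3 FPKM at 24 h and 8.57 FPKM at 12 h in U87. ATF4 targets had a median of 0.56 in DBTRG-05MG and −0.19 in U87. The single transcript BCYRN1 (a brain cytoplasmic RNA) took 0.869% of all FPKM at 24 h and 0.578% at 12 h in DBTRG-05MG, and 10.3% at 24 h and 13.3% at 12 h in U87. With every library scaled to the same total without it, U87 had 201 genes at least 2-fold higher and 333 lower.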

How the data were processed

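Poly(A) RNA-seq libraries of 2 glioblastoma lines at 5 times were used, with the group of each library taken from the labels. The deposited table holds 1 value per gene and library. Its unit is not stated in the sources used here; it was read as FPKM from its values, which are not whole numbers and do not sum to a fixed total, and 0.002 in it stands for 0. HISAT, Bowtie2, RSEM and hg38 are named in the submitters' processing notes, without versions, and strandedness is not given in the sources used here. FPKM are not counts, so no count test was run; with 1 library per time no test was run at all.

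The change was log2 of (FPKM + 1) at 24 h over (FPKM + 1) at 12 h, which understates the change of genes near 1 FPKM. Genes needed a mean of at least 1 FPKM over the 5 DBTRG-05MG libraries, and 2-fold was the threshold. Of the 12424 genes, 12171 matched RefSeq by symbol or synonym, which gave gene kinds. The table holds 25 symbols that a spreadsheet turned into dates, 19 of them past the filter; these were not named. Named genes were the 15 largest changes in each direction that reached 5 FPKM at 12 or 24 h, up to 4 genes per list, and any member of the division lists. Some genes that this rule names are not reported here; they stay in the counts and medians of their lists. The gene lists and the step were chosen with earlier results of these data known. Relative depth was estimated from low values that are multiples of 1 fragment (under 0.3 FPKM, within 0.02 on the log2 scale); it has quartiles of 9240000 and 9950000 fragments over 211 genes for the 12 h library. Promoters came from a RefSeq table on GRCh38.p14 and were searched for exact letters on both strands. The counting of changed genes was tested on simulated data. Alternatives were another pseudocount, filter, threshold or scaling. The tables were computed in Python 3.11.15 with pandas 2.3.3 on top of numpy 2.4.6, and figures were drawn in matplotlib 3.10.9.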

Additional observations from a re-analysis of the deposited data

Results flagged for a closer look

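The results below had opposite directions in DBTRG-05MG and U87 in the step from 12 to 24 h, each by at least 0.2 on the log2 scale for a list median or past 2-fold for a gene; with 1 library per line and time, the difference between the lines was not tested. Among replication lists, the median log2 change of helicase activation and fork genes was −0.73 in DBTRG-05MG and 0.22 in U87, that of deoxynucleotide supply −0.37 in DBTRG-05MG and 0.31 in U87, and that of chromatin assembly genes −0.73 in DBTRG-05MG and 0.27 in U87. Among mitosis lists, the median for mitotic entry kinases and cyclins was −0.34 in DBTRG-05MG and 0.28 in U87, for the kinetochore and spindle checkpoint −0.57 in DBTRG-05MG and 0.22 in U87, for spindle, condensin and cohesin −0.46 in DBTRG-05MG and 0.53 in U87, and for cytokinesis and anaphase promotion −0.47 in DBTRG-05MG and 0.49 in U87. Lists that were higher in DBTRG-05MG and lower in U87 were replication-dependent histones (0.46 in DBTRG-05MG and −0.23 in U87), NRF2 targets (0.34 in DBTRG-05MG and −0.48 in U87) and mitochondrial and nuclear noncoding RNA (0.31 in DBTRG-05MG and −0.84 in U87).

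Counting every gene, 19 passed 2-fold upward in DBTRG-05MG and downward in U87, and 6 the other way round, most of them loci of small RNAs. Those among the named genes were RRM2 (−1.52 in DBTRG-05MG and 1.02 in U87), HIST1H4H (1.43 in DBTRG-05MG and −1.01 in U87), C1orf51 (1.18 in DBTRG-05MG and −1.23 in U87) and AKR1C1 (1.22 in DBTRG-05MG and −1.59 in U87). AKR1C1 had 28.7 FPKM at 24 h and 88.3 FPKM at 12 h in U87. HIST1H4H had 1.13 FPKM at 24 h and 3.28 FPKM at 12 h in U87. The other protein-coding genes were CRYM (1.58 in DBTRG-05MG and −1.56 in U87) and GPR157 (1.16 in DBTRG-05MG and −1.03 in U87).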

How the results depend on the processing

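No paired analysis was possible because the step lies within 1 line, with 1 library at each time and no replicates to pair; a fit over both lines was not run. The numbers of genes past 2-fold in the step (133 higher and 92 lower in DBTRG-05MG, 183 and 376 in U87) depended on the settings. In DBTRG-05MG they were 298 higher and 140 lower with a pseudocount of 0.1, 21 and 19 with a pseudocount of 5, 60 and 44 with a filter at 5 FPKM, 201 and 177 without a filter, 634 and 441 at 1.5-fold, 26 and 18 at 3-fold, and 76 and 57 among protein-coding genes, a restriction added after seeing the data. In U87 they were 313 higher and 862 lower with a pseudocount of 0.1, 86 and 92 with 5, 796 and 1635 at 1.5-fold, and 25 and 46 at 3-fold. The 3 scalings kept all 4 counts within 1.5 times.

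Replication genes past 2-fold numbered 10 with a pseudocount of 5, 52 at 1.5-fold and 0 at 3-fold; their median lay between −0.75 and −0.53 over all settings tried. Mitosis genes lower numbered 34 at 1.5-fold and 1 with the median of all changes set to 0, and their median lay between −0.52 and −0.37. ATF4 targets higher numbered 3 with a pseudocount of 5, 21 at 1.5-fold and 0 at 3-fold, with medians between 0.51 and 0.59. Clock genes had a median of 0.3786 with a pseudocount of 5; those higher numbered 2 with a pseudocount of 5, 10 at 1.5-fold and 1 at 3-fold, and 1 was lower at 1.5-fold. Actin and SRF genes lower numbered 7 at 1.5-fold and 0 at 3-fold. The cause of the moves other than those with the threshold was not tested. Of 52 list medians under 7 settings, 297 values kept within 1.5 times. Of the medians 7 changed sign under some setting: astrocyte markers, at −0.32 as reported and 0.025 without a filter, and 6 whose reported size was at most 0.042 (cAMP pathway, AP-1, NF-kappaB, endoplasmic reticulum chaperones and respiratory chain, below 0 with the median of all changes set to 0, and hypoxia, above 0 with a filter at 5 FPKM). Of the 231 named genes, 36 lost the 2-fold call with a pseudocount of 5 and 3 (CHAF1B, CSF2 and HSPA8) with totals made equal without BCYRN1; none changed sign while called. The precision is limited by single libraries, and short or low transcripts rest on few fragments.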

Other observations

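Other groups moved in single members. Among 34 chemokine, interleukin-1 and growth factor genes the median was −0.06, yet the monocyte attractant gene CCL2 had 22.7 FPKM at 24 h and 50.3 FPKM at 12 h (log2 change −1.12), with 192, 162 and 17.2 FPKM at 0, 6 and 48 h. CSF2, a colony-stimulating factor gene, had 3.98 FPKM at 24 h and 9.03 FPKM at 12 h (−1.01). IL11, a cytokine of the IL-6 family, had 119 FPKM at 24 h and 262 FPKM at 12 h (−1.13), with 8.82, 270 and 46.8 FPKM at 0, 6 and 48 h, whereas the other 18 members of its list stayed inside 1.5-fold. In the synthesis of purines and pyrimidines, 18 of 20 genes were below 0 with a median of −0.26, and none passed 2-fold. PRPS2 and CTPS1, which make phosphoribosyl pyrophosphate and CTP, were at −0.73 and −0.69, while the serine and folate enzyme genes SHMT2 and MTHFD2, which are also ATF4 targets, were at 0.58 and 0.23.

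Long nuclear RNAs were higher: MALAT1 had 385 FPKM at 24 h and 199 FPKM at 12 h (0.95), and NEAT1 had 95.0 FPKM at 24 h and 50.7 FPKM at 12 h (0.89). The snoRNA host genes GAS5 and ZFAS1 were at 0.58 and 0.60 in DBTRG-05MG, and at −1.13 and −1.28 in U87. Interferon-stimulated genes, present at high levels in DBTRG-05MG, had a median of −0.12 over 42 members with none past 2-fold. Respiratory chain subunits had a median of 0.01 over 50 members and glycolysis genes −0.09 over 29, again with none past 2-fold.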
